A study of Mus musculus with 17 samples.

Results

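Open chromatin, mapped by ATAC-seq through the cuts of the Tn5 transposase, is described here at 9 genes whose products restrain the signalling of activated macrophages: Dusp1, Dusp2, Dusp4, Dusp5, Dusp16, Zfp36, Zfp36l1, Zc3h12a and Irak3. The genes were chosen by name for this role, and every deposited peak within 20 kb of a gene body in the GENCODE annotation of mm10 was taken. Of the 808470 peak intervals in the 17 deposited lists, 1145 lay in these windows, between 50 and 95 in a list. Of these, 933 fell in 43 consensus sites of 34186 in the genome, where a consensus site is a merged peak that at least 2 lists held among their 24389 best peaks. The remaining 212 intervals overlapped none of these sites. Their median rank was 43264, and 4 of them ranked inside the best 24389 of their list.

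The cells were bone marrow-derived macrophages (BMDMs) of male C57Bl6/J mice aged 6 to 12 weeks. The wild-type (WT) animals were littermates of the Nur77-deficient (KO) animals, which lacked Nr4a1, the gene of the nuclear receptor Nur77, in the whole body. The deletion had been made with loxP sites around Nr4a1 and a Cre driven by the CMV promoter, and the study's methods say that Cre was then bred out, while the KO samples' genotype label reads cre. BMDMs of each genotype were unstimulated (0 h) or had been exposed to lipopolysaccharide (LPS) at 100 ng/ml for 1 h or 18 h, with 3 lists in each of the 6 groups except WT at 1 h, which had 2, named replicate 1-2 and replicate 3 in the labels. The labels do not say whether replicate 1-2 holds 1 library or a merge. Nothing in the labels says whether replicates came from separate animals, so p-values measure the spread between these lists, which may be partly technical. In these bulk samples, a change in a share of the cells and a smaller change in every cell cannot be told apart.

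LPS binds Toll-like receptor 4 and switches on MAP kinases and NF-kB within minutes. The genes described here act against that signal at separate steps. Irak3 encodes a kinase-like protein without a normal catalytic activity that holds back signalling close to the receptor. The dual-specificity phosphatases remove phosphate from the activation loop of MAP kinases: Dusp1, Dusp2, Dusp4 and Dusp5 encode inducible nuclear enzymes, of which that of Dusp5 acts on ERK, while Dusp16 encodes an enzyme that acts mainly on JNK and p38. Zfp36 (tristetraprolin) and Zfp36l1 encode zinc finger proteins that bind AU-rich elements and speed up decay of cytokine mRNAs, and Zc3h12a encodes Regnase-1, an endoribonuclease that cuts stem-loops in mRNAs such as that of Il6.

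Depth differed between lists, from 0.382 to 9.75 background reads per kb, with a median of 5.62 in the 6 lists at 0 h, 1.22 in the 5 at 1 h and 3.19 in the 6 at 18 h. Peak height and p-value depend on depth, so a site was valued only by the rank of its strongest peak inside each list, where rank 1 is the smallest p-value and tied peaks share a middle rank. For tests, ranks were turned into a rank score, log2 of 24389 over the rank, set to 0 for a missing or lower peak. A difference of 1 in rank score is a halving of the rank, so the rank score of a strong site rises when it climbs past other peaks and not by its read count. A site is called here where limma's test, adjusted over all sites, gave a p under 0.05. Promoter peaks of the macrophage genes Csf1r, Adgre1, Itgam, Cd68 and Mertk were in the best 24389 peaks of 17 lists and that of Lyz2 in 16, while those of the T cell genes Cd3e and Cd8a, the B cell gene Cd79a and the neutrophil gene Ly6g were in 0 lists, and that of the neutrophil gene Camp was in 10.

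The regulatory sequences the results turn on are shown first. Each is the forward strand of mm10 around a peak summit, read from the GRCm38 assembly in RefSeq, without the bases that an annotated exon covers. The capitals mark matches, on either strand, to AP-1 (TGACTCA or TGAGTCA), CRE (TGACGTCA), NF-kB, the CArG box of serum response factor, NBRE (AAAGGTCA, the motif of Nur77), PU.1 (GAGGAAGT), C/EBP (TTACNNAA or TTGCNNAA) or IRF (GAAANNGAA). A match is a run of letters and not a measured binding site. Distances count from the RefSeq start of the gene (for Dusp4 from the GENCODE start), negative upstream. The first 6 lie at summits that gained rank at 1 h of LPS, at Dusp5, Dusp1, Zfp36 and Zc3h12a, the next 2 at the promoters of Dusp4 and Zfp36l1, which lost rank at 18 h, and the last at the only summit of the 9 loci with an NBRE match. The first 6 are a selection, and matches at all summits that rose at 1 h are counted further below.
Dusp5 −88 bp, chr19:53528957-53529108: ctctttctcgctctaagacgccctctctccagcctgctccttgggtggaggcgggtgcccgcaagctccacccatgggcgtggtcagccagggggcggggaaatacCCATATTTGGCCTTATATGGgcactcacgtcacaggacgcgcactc
Dusp1 −454 bp, chr17:26508826-26509026: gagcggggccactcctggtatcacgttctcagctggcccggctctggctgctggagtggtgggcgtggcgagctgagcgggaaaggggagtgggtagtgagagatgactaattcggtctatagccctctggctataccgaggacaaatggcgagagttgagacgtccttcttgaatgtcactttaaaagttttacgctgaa
Dusp1 −6429 bp, chr17:26514801-26515001: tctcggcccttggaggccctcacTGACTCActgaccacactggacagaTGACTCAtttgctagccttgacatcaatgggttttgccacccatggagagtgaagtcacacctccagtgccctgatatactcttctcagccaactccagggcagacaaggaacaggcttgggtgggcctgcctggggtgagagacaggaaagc
Zfp36 −2816 bp, chr7:28381944-28382144: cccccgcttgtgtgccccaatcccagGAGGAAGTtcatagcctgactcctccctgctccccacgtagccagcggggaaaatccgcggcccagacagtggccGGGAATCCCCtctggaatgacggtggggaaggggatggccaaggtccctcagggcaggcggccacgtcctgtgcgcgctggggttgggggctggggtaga
Zc3h12a +2959 bp, chr4:125124822-125125022: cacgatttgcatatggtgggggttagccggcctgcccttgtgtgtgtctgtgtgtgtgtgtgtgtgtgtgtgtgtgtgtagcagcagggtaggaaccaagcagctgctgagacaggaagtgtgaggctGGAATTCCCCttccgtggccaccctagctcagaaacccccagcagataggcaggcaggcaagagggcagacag
Zc3h12a +5168 bp, chr4:125122613-125122813: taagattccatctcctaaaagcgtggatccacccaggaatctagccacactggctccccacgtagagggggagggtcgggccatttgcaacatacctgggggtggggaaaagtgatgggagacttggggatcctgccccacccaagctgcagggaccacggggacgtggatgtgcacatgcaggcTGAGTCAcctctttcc
Dusp4 −19 bp, chr8:34807178-34807296: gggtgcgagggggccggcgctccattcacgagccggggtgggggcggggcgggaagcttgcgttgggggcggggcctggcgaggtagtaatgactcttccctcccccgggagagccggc
Zfp36l1 −133 bp, chr12:80113046-80113246: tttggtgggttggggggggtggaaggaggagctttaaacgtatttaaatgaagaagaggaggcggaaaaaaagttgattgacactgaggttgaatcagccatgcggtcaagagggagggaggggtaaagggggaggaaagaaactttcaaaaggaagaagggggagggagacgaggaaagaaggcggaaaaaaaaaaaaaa
Dusp1 −63127 bp, chr17:26571499-26571699: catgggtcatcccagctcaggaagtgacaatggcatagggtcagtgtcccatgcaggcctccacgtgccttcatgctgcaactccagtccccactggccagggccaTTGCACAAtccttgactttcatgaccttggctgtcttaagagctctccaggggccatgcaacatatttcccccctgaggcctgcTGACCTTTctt
The Dusp5 promoter carries 2 CArG boxes side by side, from bases 107 and 117 of the printed stretch. The capitals in the Zfp36 element are a PU.1 match from base 27 and an NF-kB match from base 102, next to the summit at base 101. The Zc3h12a intron holds an NF-kB match from base 129 at +2959 bp and an AP-1 match from base 186 at +5168 bp, and the Dusp1 element at −6429 bp has AP-1 matches from bases 24 and 49. No match to the motifs searched lies in the stretches at Dusp1 −454 bp, Dusp4 and Zfp36l1.

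A site entered by lying within the limit in at least 2 lists, so a weak site can have entered through the group in which it is high, and its direction was then fixed by that choice. Of the 43 sites, 11 (25.6%) had fewer than 2 such lists outside 1 LPS time, beside 25% of all sites: Dusp1 +21.1 kb, Dusp2 +5.2 kb, Dusp5 +16.2 and +23.8 kb, Dusp16 −5.2 and −6.9 kb, Zfp36l1 −17.9, −14.4 and +5.7 kb, and Irak3 +4.4 and +10.8 kb. Their differences over time are given as descriptions. Dusp2 −13.0 kb, outside these 11, was within the limit only in lists with LPS, so its sign against 0 h was fixed as well.

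The promoters of the phosphatase genes Dusp5, Dusp2 and Dusp4 changed rank with LPS at different times. The Dusp5 promoter site (chr19:53528347-53530312) ranked higher at 1 h and fell back by 18 h. Its ranks in WT were 3598, 3206.5 and 2976 at 0 h, 1163.5 and 1201 at 1 h, and 4751.5, 4783 and 6031.5 at 18 h. In KO they were 3729, 3164 and 3596 at 0 h, 2283, 1425.5 and 1023 at 1 h, and 9176, 5269 and 3268 at 18 h. All 5 lists at 1 h ranked the site above all 6 lists at 0 h and above all 6 at 18 h. The rank score rose by 1.34 ± 0.28 (SE) at 1 h against 0 h, which is a 2.53-fold smaller rank (adjusted p = 0.00179, limma over all 34186 sites with Benjamini-Hochberg adjustment, and two-sided exact permutation p = 0.005, the smallest this design can give). From 1 to 18 h it fell by 1.99 ± 0.28 (adjusted p = 4.72e-05), and at 18 h against 0 h the difference of -0.65 ± 0.27 did not pass the threshold (adjusted p = 0.0892).

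Weak sites beyond the 3′ end of Dusp5 were also highest at 1 h. The site at +16.2 kb (chr19:53542994-53546602) was found within the best 24389 peaks of every list at 1 h, at ranks of 14417.5 and 18626 in WT and 13914.5, 19586 and 16571.5 in KO, and within those of 1 list at 18 h and no list at 0 h. Its rank score differed by 0.57 ± 0.09 between 1 h and 0 h and by -0.56 ± 0.09 between 18 h and 1 h. The site at +23.8 kb was within the limit in 3 lists at 1 h, 1 at 0 h and 0 at 18 h, with a difference of 0.25 ± 0.09 at 1 h. Both sites met the filter through the 1 h lists, which fixed these signs. Within 20 kb of Dusp5 the best 24389 peaks of a list held 1.17 ± 0.408 peaks (SD, n = 6) before LPS. This became 3.2 ± 0.837 (SD, n = 5) at 1 h and again 1.17 ± 0.408 (SD, n = 6) by 18 h.

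The Dusp2 promoter rose at 1 h and stayed higher at 18 h. The site (chr2:127334297-127340017) had ranks in WT of 4704, 2826.5 and 3506 at 0 h, 2608.5 and 1201 at 1 h, and 1271.5, 1217 and 2101 at 18 h. KO lists gave 2717.5, 3293.5 and 8354.5 at 0 h, 1740, 1598 and 802.5 at 1 h, and 2110.5, 2196 and 2411 at 18 h. Ranks at 1 h and at 18 h were all better than those at 0 h, and the 1 h and 18 h lists overlapped. The rank score rose by 1.36 ± 0.35 at 1 h (adjusted p = 0.00749) and by 1.10 ± 0.33 at 18 h against 0 h (adjusted p = 0.0213), with an exact permutation p of 0.005 for each. The site spans 5721 bp, and when a list was counted only where its peak covered at least 50% of that span, the 1 h difference turned to -0.75. An upstream site at −13.0 kb was within the limit in 0 lists at 0 h, 4 at 1 h and 4 at 18 h. It entered only through lists with LPS, which fixed its sign against 0 h. Its difference of 0.34 ± 0.09 at 18 h is therefore a description. It was 0.53 ± 0.13 in WT and 0.15 ± 0.13 in KO, where 1 list at 18 h was within the limit. The third Dusp2 site, at +5.2 kb, overlaps the promoter of the neighbouring gene Astl. Summits of the Dusp2 promoter site at +1663 and +2186 bp lie at the Astl promoter too. The +5.2 kb site was not called, meaning in none of the comparisons of 1 and 18 h with 0 h and with each other.

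Dusp4, in contrast, lost rank late. At its promoter (chr8:34806238-34811729), WT ranks were 4164, 5051 and 2976 at 0 h, 4204 and 4392.5 at 1 h, and 8955.5, 8336.5 and 10987.5 at 18 h. The KO ranks were 3534.5, 3293.5 and 5226.5 at 0 h, 5638.5, 4084.5 and 3527 at 1 h, and 13081, 8892 and 15381 at 18 h. The 0 h and 1 h lists overlapped, and every 18 h list lay below all of them. The rank score differed by -0.13 ± 0.23 at 1 h (adjusted p = 0.763) and fell by 1.43 ± 0.22 at 18 h (adjusted p = 0.00014, exact permutation p = 0.005). Its other site, in an intron at +9.0 kb, was not called.

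**Figure D1:**
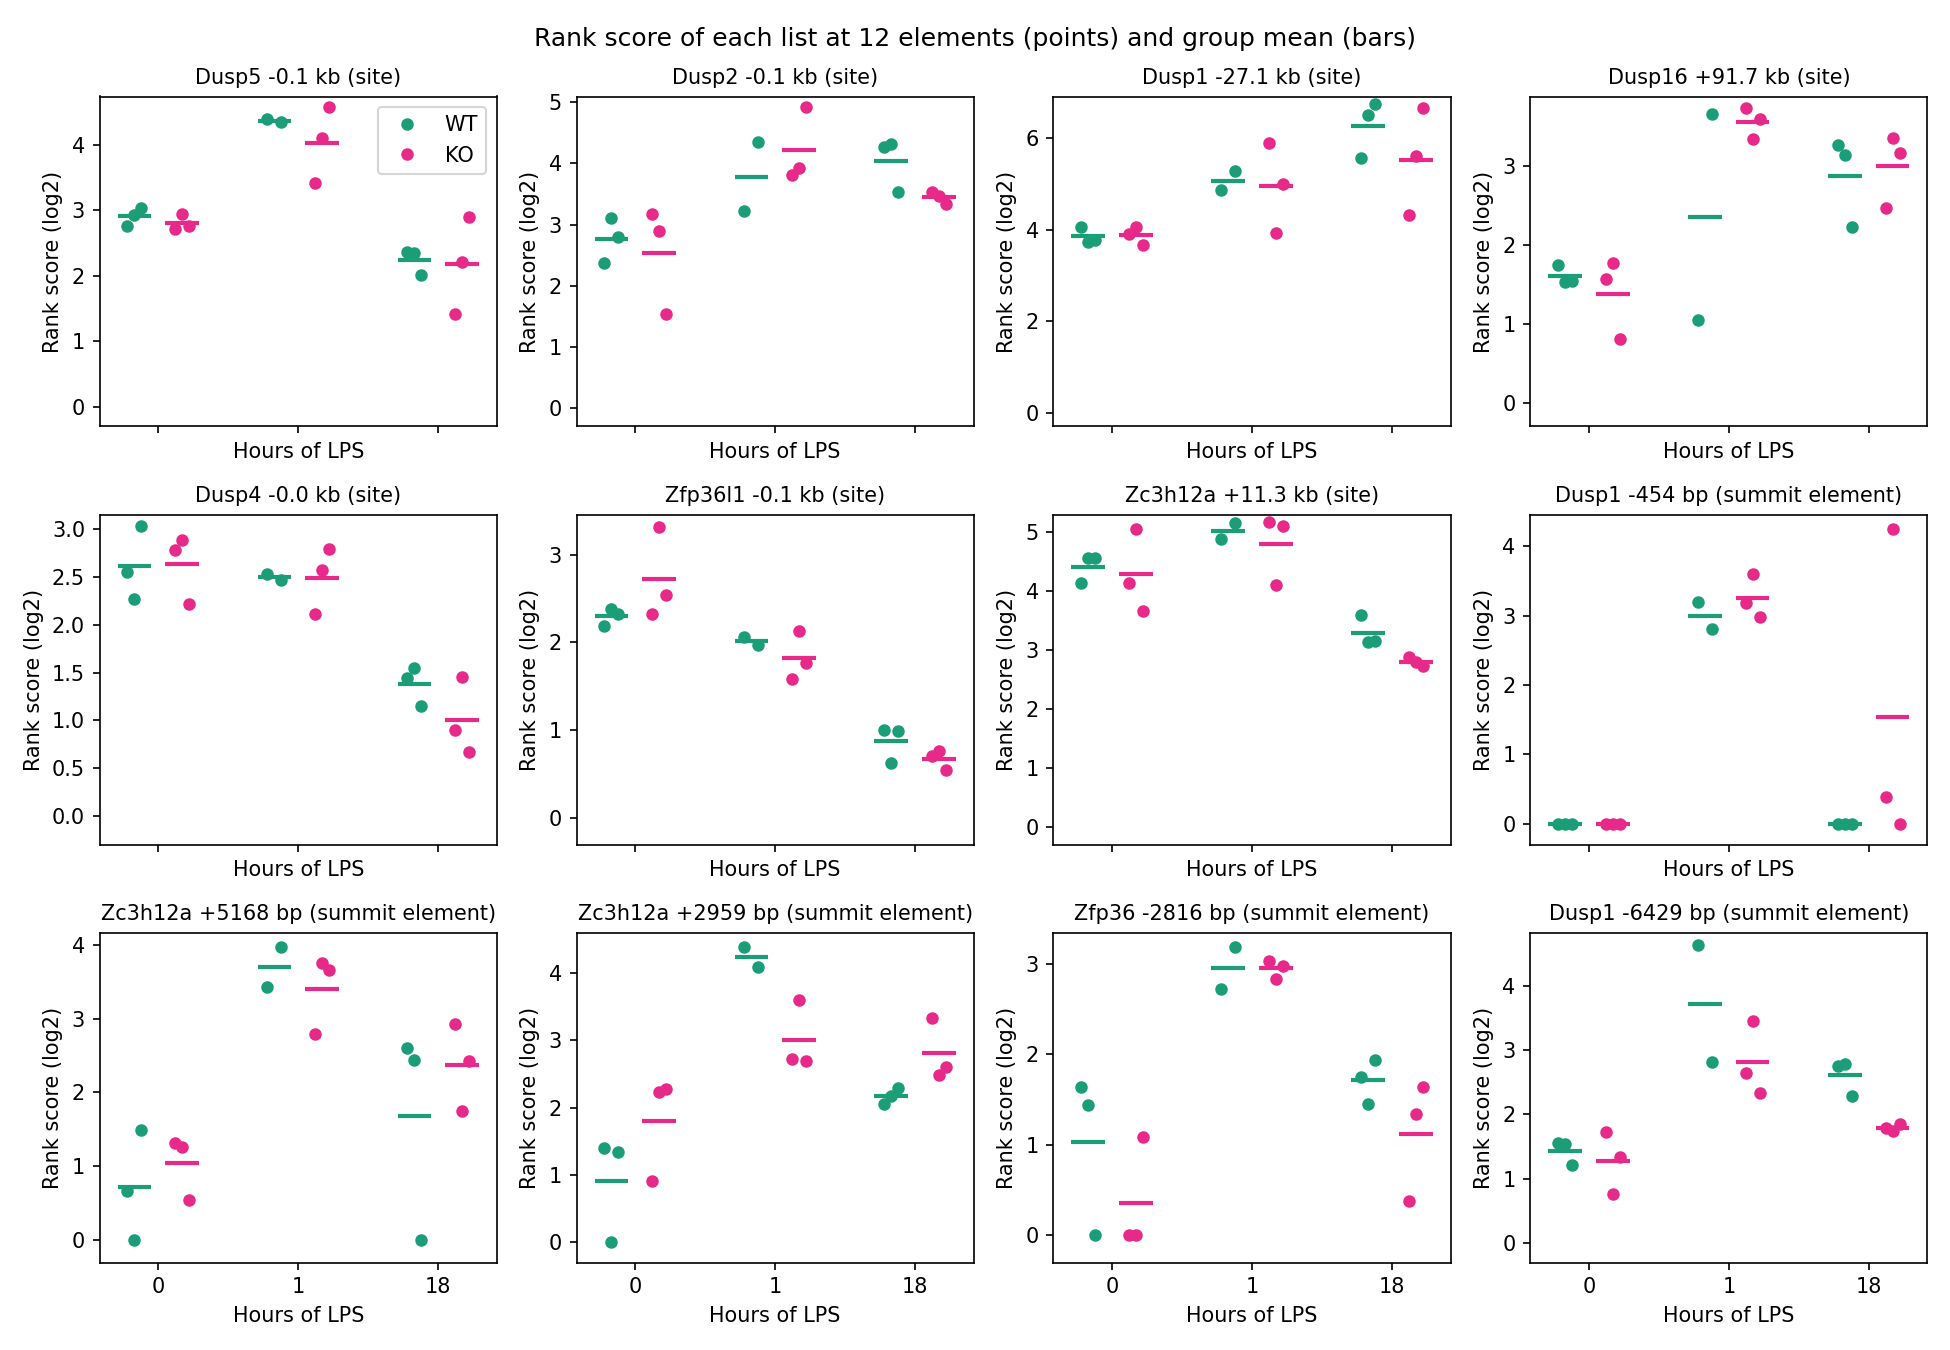
Rank score (log2 scale, vertical axis) against hours of LPS at 12 elements. Each point is 1 list, WT in green and KO in magenta, and the bar is the group mean. Dusp5 peaks at 1 h, Dusp2 and the Dusp16 site at +91.7 kb stay up at 18 h, Dusp4 and Zfp36l1 drop at 18 h, and the last 5 panels show summit elements whose 5 lists at 1 h lie above all 6 lists at 0 h.

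Dusp1 held 8 of the 43 sites, in a window widened by a long second transcript in GENCODE that starts near the Ergic1 promoter. The promoter site itself (chr17:26500355-26510523, 10169 bp wide) was not called. Its ranks in WT were 2250.5, 2772 and 1637 at 0 h, 1163.5 and 1429 at 1 h, and 885.5, 1657 and 2101 at 18 h. In KO they were 1114.5, 2026 and 1183 at 0 h, 784, 1036.5 and 645 at 1 h, and 4006, 1108.5 and 1397.5 at 18 h. The difference at 1 h was 0.77 ± 0.37 (adjusted p = 0.134) and at 18 h 0.09 ± 0.35 (adjusted p = 0.936). The site at −53.0 kb, at the long transcript's start, was not called either.

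Distal sites of Dusp1 did change, and they split into early and late ones. Those between −6.4 and −29.8 kb lie in introns of the long transcript. The early site, with its strongest summit at −6.4 kb (chr17:26511681-26515778), had ranks in WT of 8022.5, 8130.5 and 10178 at 0 h, 978.5 and 3428.5 at 1 h, and 3554, 3480 and 4893 at 18 h. KO ranks were 7182.5, 13391.5 and 9065 at 0 h, 3887.5, 2182.5 and 4743.5 at 1 h, and 5924.5, 6804 and 6511.5 at 18 h. Every list with LPS ranked it above every list without. It rose by 1.87 ± 0.31 at 1 h (a 3.64-fold smaller rank, adjusted p = 0.000205) and was still 0.86 ± 0.29 higher at 18 h (adjusted p = 0.0373, and 0.0517 with depth as a covariate in limma). Counting only peaks that covered at least 50% of the 4098 bp site left a 1 h difference of -0.063.

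The strongest distal site of the locus lay around −27.1 kb (chr17:26529558-26536483) and was highest at 18 h. WT lists ranked it 1471, 1835.5 and 1775 at 0 h, 832 and 626.5 at 1 h, and 512.5, 268.5 and 225 at 18 h. KO lists ranked it 1613.5, 1458 and 1925 at 0 h, 406, 1598 and 756 at 1 h, and 1219.5, 501.5 and 241.5 at 18 h. All 6 lists at 18 h lay above all 6 at 0 h, and the 1 h lists lay across both. The rank score rose by 2.04 ± 0.41 at 18 h (a 4.1-fold smaller rank, adjusted p = 0.00166). At 1 h the difference was 1.15 ± 0.44 (adjusted p = 0.0609).

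A late site at −63.1 kb lies in an intron of the neighbour Ergic1 (chr17:26570797-26572467). Ranks there in WT were 16722, 17696 and 19429.5 at 0 h, no peak and 18626 at 1 h, and 7811, 7738 and 6172.5 at 18 h. In KO they were 16801, 14643 and 20688.5 at 0 h, 29816, 22863 and 16571.5 at 1 h, and 7299, 6804 and 7442.5 at 18 h. The 18 h lists lay above all lists at 0 h and 1 h. It rose by 1.29 ± 0.15 at 18 h against 0 h (adjusted p = 1.15e-05) and by 1.56 ± 0.16 against 1 h (adjusted p = 1.44e-06). The NBRE match printed for this site begins at base 191 of the stretch, near its end. Of the other Dusp1 sites, −29.8 kb rose by 0.58 ± 0.15 at 18 h (adjusted p = 0.0083). The site at +21.1 kb was within the limit in the 3 KO lists at 18 h and in 0 others, so its difference of 0.10 ± 0.04 at 18 h is one that the filter fixed. The site at +10.8 kb was not called, with 0.85 ± 0.33 at 1 h (adjusted p = 0.0599), but with depth as a covariate it was, at 1 h (1.38 ± 0.37, adjusted p = 0.018) and from 1 to 18 h (-1.18 ± 0.35, adjusted p = 0.025).

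Dusp16, the phosphatase gene for JNK and p38, had a modest promoter. Ranks of that site (chr6:134790881-134793298) were 12269, 14853.5 and 11645.5 at 0 h, 11828 and 8310.5 at 1 h, and 11998.5, 13474 and 12299 at 18 h in WT. The KO lists gave 13645.5, 11810 and 22921.5 at 0 h, 13132, 6805 and 12233 at 1 h, and 34995.5, no peak and 20003.5 at 18 h. Neither LPS time passed the test against 0 h (0.48 ± 0.21 at 1 h, adjusted p = 0.0956), and the fall of 0.75 ± 0.21 from 1 to 18 h did (adjusted p = 0.0119), although the lists of the 2 times overlapped.

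The strongest site of the Dusp16 window lay beyond the gene's 3′ end, in an intron of Borcs5 91.7 kb from the start (chr6:134700332-134701481). WT lists placed it at 7305, 8420 and 8362.5 at 0 h, 11828 and 1931.5 at 1 h, and 2553.5, 2768 and 5237.5 at 18 h. KO lists placed it at 8237, 7132 and 13955.5 at 0 h, 1838.5, 2416.5 and 2021 at 1 h, and 4399.5, 2385 and 2733 at 18 h. All 18 h lists were above all 0 h lists, as were the 1 h lists except WT replicate 1-2, the shallowest of the 17. The rank score rose by 1.46 ± 0.38 at 1 h (adjusted p = 0.00798, exact permutation p = 0.035) and by 1.44 ± 0.36 at 18 h (adjusted p = 0.00684). Of the sites upstream of Dusp16, the one at −3.9 kb rose by 0.29 ± 0.10 at 1 h (adjusted p = 0.0495, and 0.51 with depth as a covariate). Its best rank was 11828, in WT 1 h replicate 1-2, a list in which this site, the promoter and the +91.7 kb site all shared that tied rank. The sites at −5.2 and −6.9 kb were not called. With depth as a covariate the one at −5.2 kb, within the limit in the 3 KO lists at 1 h and 1 list at 18 h, had a difference of 0.52 ± 0.15 at 1 h and passed limma's threshold there, in the direction that the filter fixed.

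**Figure D2:**
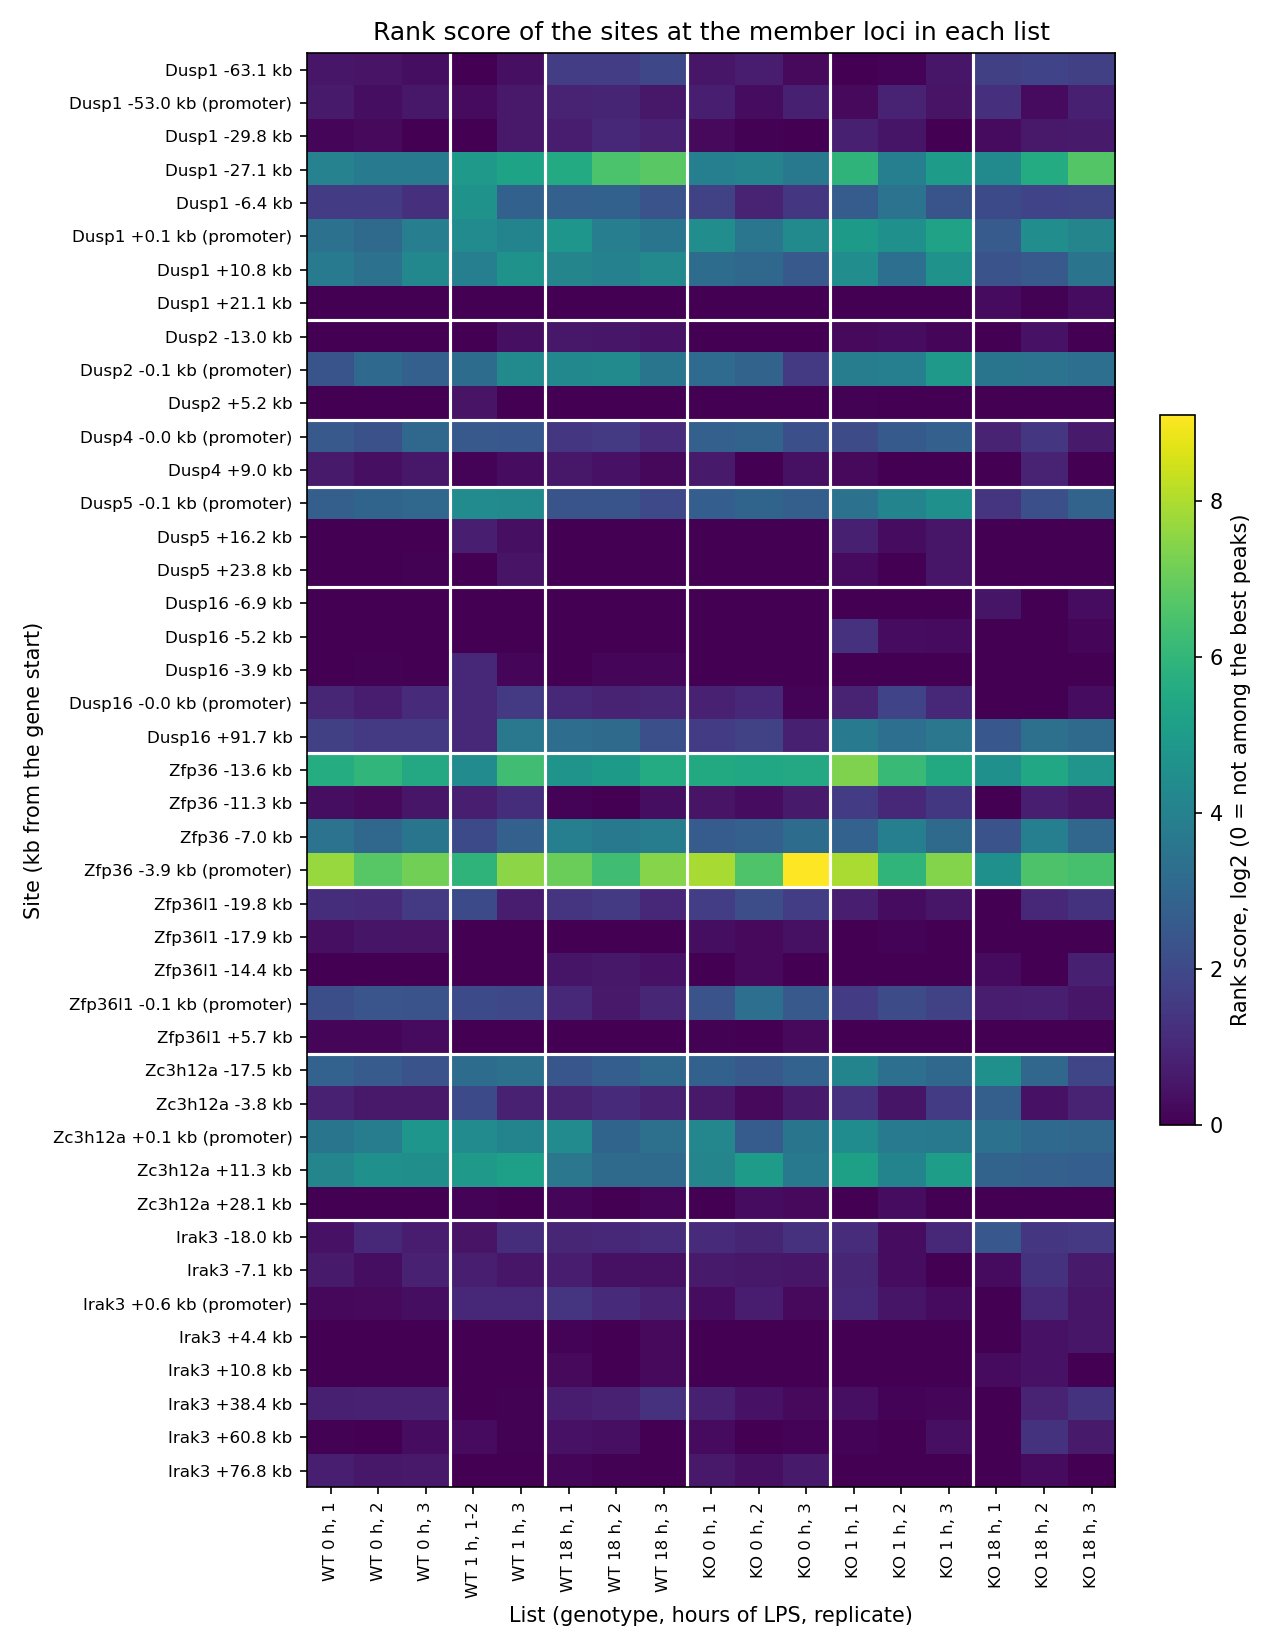
Rank score (colour, log2 scale, 0 in dark) of the 43 sites (rows, by gene and distance from the gene start) in the 17 lists (columns, by genotype, hours of LPS and replicate). The wide site over the Zfp36 promoter, ranked by summits upstream of the start, is the brightest row. Of the 43 sites, 18 were in the best 24389 peaks of all 17 lists.

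Among the mRNA decay genes, Zfp36 had the best-ranked promoter site of the 9 loci, through summits upstream of its start. Its site (chr7:28370653-28384687) is 14035 bp wide, the widest of the 43, and takes in the promoters of Zfp36 and Plekhg2 and several summits. In most lists its rank comes from a summit at −3923 bp. The summit over the start, at −23 bp, ranked 1893.5 to 3172.5 at 0 h when summits were followed singly, as below. In WT the whole site ranked 119, 228.5 and 169.5 at 0 h, 404.5 and 132.5 at 1 h, and 185, 306.5 and 141.5 at 18 h. KO lists gave 101, 252.5 and 44.5 at 0 h, 99.5, 389.5 and 143 at 1 h, and 1030.5, 258.5 and 282 at 18 h. The groups overlapped, and it was not called. The differences were -0.62 ± 0.58 at 1 h (adjusted p = 0.478) and -1.14 ± 0.55 at 18 h (adjusted p = 0.149). The flanking site at −11.3 kb, in an intron of Med29, rose by 0.75 ± 0.17 at 1 h (adjusted p = 0.00275) and fell by 0.88 ± 0.17 from 1 to 18 h (adjusted p = 0.000717). The site at −13.6 kb, a strong one at the shared promoter of Med29 and Paf1, was not called, nor was the one at −7.0 kb.

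Zfp36l1 lost rank with LPS. At the Zfp36l1 promoter (chr12:80109647-80116592), WT ranks were 5341, 4679 and 4880.5 at 0 h, 5848.5 and 6217.5 at 1 h, and 12130.5, 15807 and 12299 at 18 h. In KO the site ranked 4881, 2447 and 4206 at 0 h, 8153.5, 5574 and 7176 at 1 h, and 14937, 14306 and 16726.5 at 18 h. All 5 lists at 1 h lay below all 6 at 0 h, and all 6 at 18 h lay below both. The fall was -0.59 ± 0.21 at 1 h (adjusted p = 0.0393) and -1.74 ± 0.19 at 18 h, a 3.33-fold larger rank (adjusted p = 7.23e-06, exact permutation p = 0.005). At 1 h, 13 of the 25 alternative settings did not keep the call, with values over all 25 from -1.27 to -0.44. The 18 h call was the only one of the 44 LPS calls at the 43 sites that all 25 kept. A further 3 sites of the locus met the filter through a single time. Upstream of Zfp36l1, −17.9 kb was within the limit in 6 lists at 0 h, 1 at 1 h and 0 at 18 h, with differences of -0.37 ± 0.07 and -0.38 ± 0.06 at 1 and 18 h. The site at −14.4 kb was within it in 1, 0 and 5 lists at these times, with 0.40 ± 0.10 at 18 h. At +5.7 kb, downstream, there were 5, 0 and 0 lists, with -0.14 ± 0.04 at 1 h and -0.14 ± 0.04 at 18 h. The site at −19.8 kb was not called.

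At Zc3h12a the promoter site as a whole was not called, while a site downstream of the gene was. The promoter site (chr4:125121679-125128652) reaches from the gene start into the gene body. It ranked 2100, 1746 and 879 at 0 h, 1163.5 and 1429 at 1 h, and 1175.5, 3228.5 and 2370 at 18 h in WT. It ranked 1310, 3933.5 and 2082 at 0 h, 1143.5, 1786 and 1921.5 at 1 h, and 2311, 2803 and 3066 at 18 h in KO. The groups overlapped, with differences of 0.34 ± 0.36 at 1 h (adjusted p = 0.537) and -0.39 ± 0.34 at 18 h (adjusted p = 0.442).

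Beyond its 3′ end, the site at +11.3 kb (chr4:125114245-125120275) was among the better ranked ones before LPS and lost rank at 18 h. In WT the ranks were 1396.5, 1041 and 1043.5 at 0 h, 832 and 691.5 at 1 h, and 2019.5, 2768 and 2764 at 18 h. KO lists gave 1395, 738.5 and 1925 at 0 h, 678.5, 1425.5 and 713.5 at 1 h, and 3311.5, 3523.5 and 3706.5 at 18 h. All 18 h lists lay below all others. The score fell by 1.30 ± 0.29 at 18 h against 0 h (adjusted p = 0.00357) and by 1.85 ± 0.31 against 1 h (adjusted p = 0.000231). With at least 50% of the 6031 bp site covered, the latter turned to 0.78. The sites at −17.5, −3.8 and +28.1 kb were not called. At −17.5 kb, however, all 5 lists at 1 h lay above all 6 at 0 h (0.72 ± 0.37, exact permutation p = 0.005, not adjusted, against an adjusted limma p of 0.158). At −3.8 kb the exact permutation p was 0.025 at 1 h (0.70 ± 0.34) and 0.045 at 18 h (0.55 ± 0.32), neither adjusted, with adjusted limma p-values of 0.134 and 0.238.

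Irak3, which acts near the receptor, had weak sites throughout. Its promoter site (chr10:120200925-120203285) ranked 21363, 20964.5 and 19429.5 at 0 h, 11828 and 11797 at 1 h, and 9442.5, 11227.5 and 13753.5 at 18 h in WT. The KO ranks were 19732, 14643 and 20688.5 at 0 h, 11995, 17010.5 and 20242.5 at 1 h, and no peak, 11750 and 16726.5 at 18 h. The differences of 0.49 ± 0.19 at 1 h and 0.48 ± 0.18 at 18 h missed the threshold (adjusted p = 0.068 and 0.0639). A site at +76.8 kb, beyond the 3′ end, was in the best 24389 peaks of all 6 lists at 0 h and of no list at 1 h. It fell by 0.61 ± 0.09 at 1 h and 0.53 ± 0.09 at 18 h (adjusted p = 0.000102 and 0.0003). The intron site at +38.4 kb dipped by 0.55 ± 0.20 at 1 h (adjusted p = 0.0496, and 0.37 with depth as a covariate). Intron sites at +4.4 and +10.8 kb met the filter only through the 18 h lists, 5 and 4 of them, and were within the limit in 0 lists at 0 and 1 h. Their differences at 18 h, 0.22 ± 0.07 and 0.20 ± 0.06, lie close to the lower end of the scale, and 10 and 12 of the 25 alternative settings left them under limma's threshold. The exact permutation p at +10.8 kb was 0.08. The sites at −18.0, −7.1 and +60.8 kb, of which −7.1 kb is the promoter of Tmbim4, were not called.

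**Figure D3:**
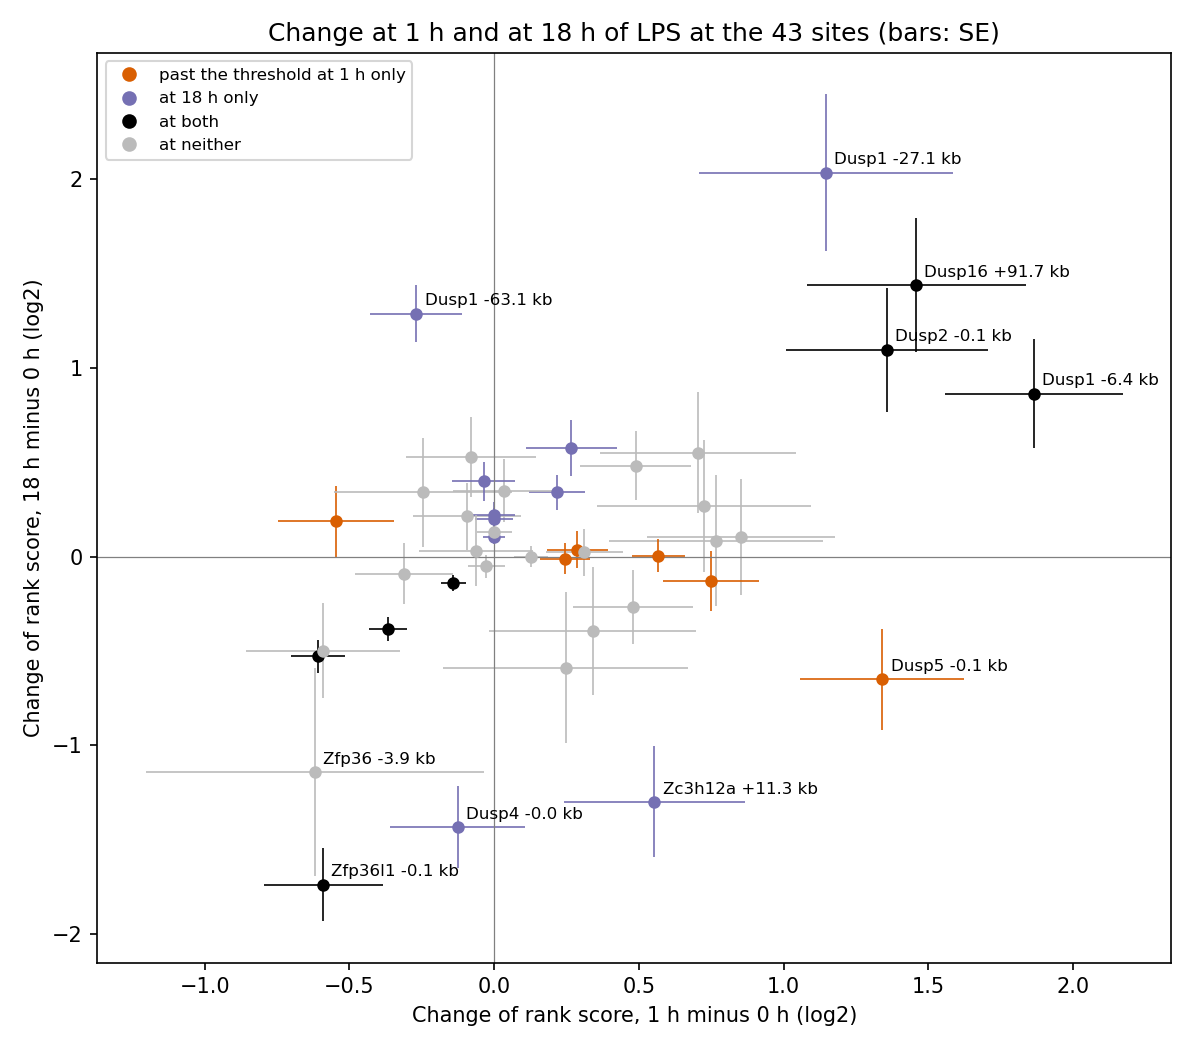
Change of rank score from 0 to 1 h of LPS (horizontal axis) against that from 0 to 18 h (vertical axis) for the 43 sites, both log2, with SE bars. Both axes share the 6 lists at 0 h, so the points lean along the diagonal by construction. Dusp5 lies at 1.34 and -0.65, Zfp36l1 at -0.59 and -1.74.

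The 3 comparisons over time share lists, those at 0 h among them, so their counts are not independent. At 1 h, 8 of the 43 sites (18.6%) rose and 5 (11.6%) fell, beside 13.8% of all sites called higher and 14.3% called lower. At 18 h, 11 (25.6%) rose and 6 (14.0%) fell, beside 10.8% and 12.8%. From 1 to 18 h, 5 (11.6%) rose and 9 (20.9%) fell, beside 13.7% and 15.3%. The median difference over the 43 sites was 0.13 at 1 h and 0.085 at 18 h, and -0.024 and 0 over all sites. The 24 sites called in at least 1 of these comparisons gave 44 calls, of which 17 were changes of at least 1 and 15 were under 0.5. Of the 44 calls, 15 were at sites that met the filter through 1 time. Without these sites, 6 of 32 (18.8%) rose and 3 (9.38%) fell at 1 h, beside 13.4% and 16.9% of all sites so restricted. At 18 h, 7 (21.9%) rose and 4 (12.5%) fell, beside 10.9% and 14.8%. The 7 that rose include Dusp2 −13.0 kb, whose sign against 0 h was fixed too. From 1 to 18 h, 2 (6.25%) rose and 7 (21.9%) fell, beside 14.9% and 15.4%. An exact permutation p under 0.05, not adjusted, was also found at 8 of the 30 sites not called at 1 h, 4 of the 26 at 18 h and 2 of the 29 between 1 and 18 h. This test was run at the 9 loci only, so no share of all sites can stand beside these counts. Without WT 0 h replicate 3, 8 sites in place of 13 were called at 1 h.

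Sites as wide as those of Dusp1, Zfp36 and Zc3h12a hold several peak summits, and their rank is that of the strongest one. The summits were therefore also followed singly, a choice made after the widths were seen: entries whose summits lay within 250 bp formed 1 summit element, ranked among all entries of the list with the limit at 26558. The 9 loci held 88 summit elements of 37708, 26 of them at Dusp1, 14 at Zfp36 and 13 at Zc3h12a. A missing summit can mean a weaker peak or a neighbour that the peak caller did not split off. At 1 h, 20 summit elements rose and 8 fell, beside 13.5% called higher and 14.1% called lower of all. At 18 h, 17 rose and 9 fell, beside 9.52% and 12.8%. From 1 to 18 h, 7 rose and 16 fell, beside 12.3% and 15%. Of the 88, 22 met the filter through 1 time, among them those of 7 of the 28 calls at 1 h, 4 of the 26 at 18 h and 5 of the 23 between. With depth as a covariate, 16 of the 28 calls at 1 h, all 26 at 18 h and 15 of the 23 between 1 and 18 h were kept.

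At Dusp1, a summit at −454 bp was seen only with LPS. In WT it ranked 2900 and 3791.5 at 1 h and was missing from every list at 0 and 18 h. In KO it was missing at 0 h, ranked 2923.5, 2185 and 3367 at 1 h, and at 18 h was in replicates 1 and 2, at 20402 and 1400.5. All 5 lists at 1 h carried it and none of the 6 at 0 h did at any rank. It was within the limit only in lists with LPS, which fixed its sign against 0 h. Its difference of 3.13 ± 0.52 at 1 h is therefore a description. From 1 to 18 h its score fell by 2.36 ± 0.52 (adjusted p = 0.00283). The summit over the start itself, at +109 bp, differed by 1.10 ± 0.44 at 1 h (adjusted p = 0.0716), and with depth as a covariate in limma by 1.67 ± 0.53 (adjusted p = 0.044).

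Summits a little farther upstream of Dusp1 rose late. At −1045 bp the WT ranks were 15929, 14702.5 and 15621.5 at 0 h, no peak and 33032 at 1 h, and 5433, 5311.5 and 5430 at 18 h. KO ranks were 12474, 13118 and 16520 at 0 h, 17487.5, 15432.5 and 17129.5 at 1 h, and 8564.5, 4730 and 4948 at 18 h. The 18 h lists lay above all others, 1.38 ± 0.17 higher than at 0 h (adjusted p = 2.97e-05). At 1 h this summit was called lower, with a difference of -0.52 (adjusted p = 0.0435, and 0.196 with depth as a covariate). At −4264 bp the rise at 18 h was 1.64 ± 0.17 (adjusted p = 6.66e-06), with 0.09 ± 0.18 at 1 h (adjusted p = 0.789). The summit at −6429 bp with its 2 AP-1 matches rose by 1.91 ± 0.32 at 1 h (adjusted p = 0.000257) and fell by 1.06 ± 0.32 from 1 to 18 h (adjusted p = 0.019, and 0.14 with depth as a covariate). A further summit at −21651 bp was in the best 26558 entries of all 5 lists at 1 h and of none at 0 or 18 h. It met the filter only through the 1 h lists, so its difference of 0.78 ± 0.13 is a description.

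Zfp36 held an early summit as well, hidden inside its wide site. The one at −2816 bp, with the NF-kB match beside its peak, ranked 8496.5, 9809.5 and no peak at 0 h, 4036.5 and 2919.5 at 1 h, and 7889.5, 9702 and 6919.5 at 18 h in WT. KO lists gave no peak, no peak and 12510 at 0 h, 3242.5, 3724.5 and 3367 at 1 h, and 20402, 10483 and 8518 at 18 h. All 1 h lists lay above all others. It rose by 2.26 ± 0.32 at 1 h, a 4.78-fold smaller rank (adjusted p = 6.34e-05, and 0.00354 with depth as a covariate), and fell by 1.53 ± 0.32 from 1 to 18 h (adjusted p = 0.00185). The stronger summit at −2127 bp rose by 1.55 ± 0.53 (adjusted p = 0.0371, and 0.0948 with depth as a covariate). The strongest of the locus, at −3923 bp, differed by -0.97 ± 0.63 (adjusted p = 0.279), and the one over the start, at −23 bp, by 0.70 ± 0.31 (adjusted p = 0.0984).

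Inside Zc3h12a, 2 intron summits rose early. At +5168 bp the ranks in WT were 16696, no peak and 9428 at 0 h, 2468 and 1703 at 1 h, and 4384.5, 4883 and no peak at 18 h. In KO they were 10672, 11092.5 and 18203 at 0 h, 3851.5, 1965 and 2105 at 1 h, and 3482, 7921 and 4948 at 18 h. The lists at 1 h and 18 h overlapped. At +2959 bp WT lists gave 10066, no peak and 10503 at 0 h, 1277 and 1561.5 at 1 h, and 6414.5, 5919.5 and 5430 at 18 h. The KO ranks there were 14168.5, 5640 and 5488.5 at 0 h, 4013.5, 2185 and 4103.5 at 1 h, and 2640.5, 4730 and 4376.5 at 18 h. For both summits, all 5 lists at 1 h lay above all 6 at 0 h. The summit at +5168 bp rose by 2.67 ± 0.44 (adjusted p = 0.000232) and that at +2959 bp by 2.26 ± 0.33 (adjusted p = 8.9e-05), and with depth as a covariate the limma adjusted p-values were 0.00182 and 0.00602. Downstream of the gene, the summit at +9685 bp moved the other way, by -1.70 ± 0.25 at 1 h (adjusted p = 6.94e-05). The promoter summit at +136 bp differed by -0.77 ± 0.66 (adjusted p = 0.429).

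**Figure D4:**
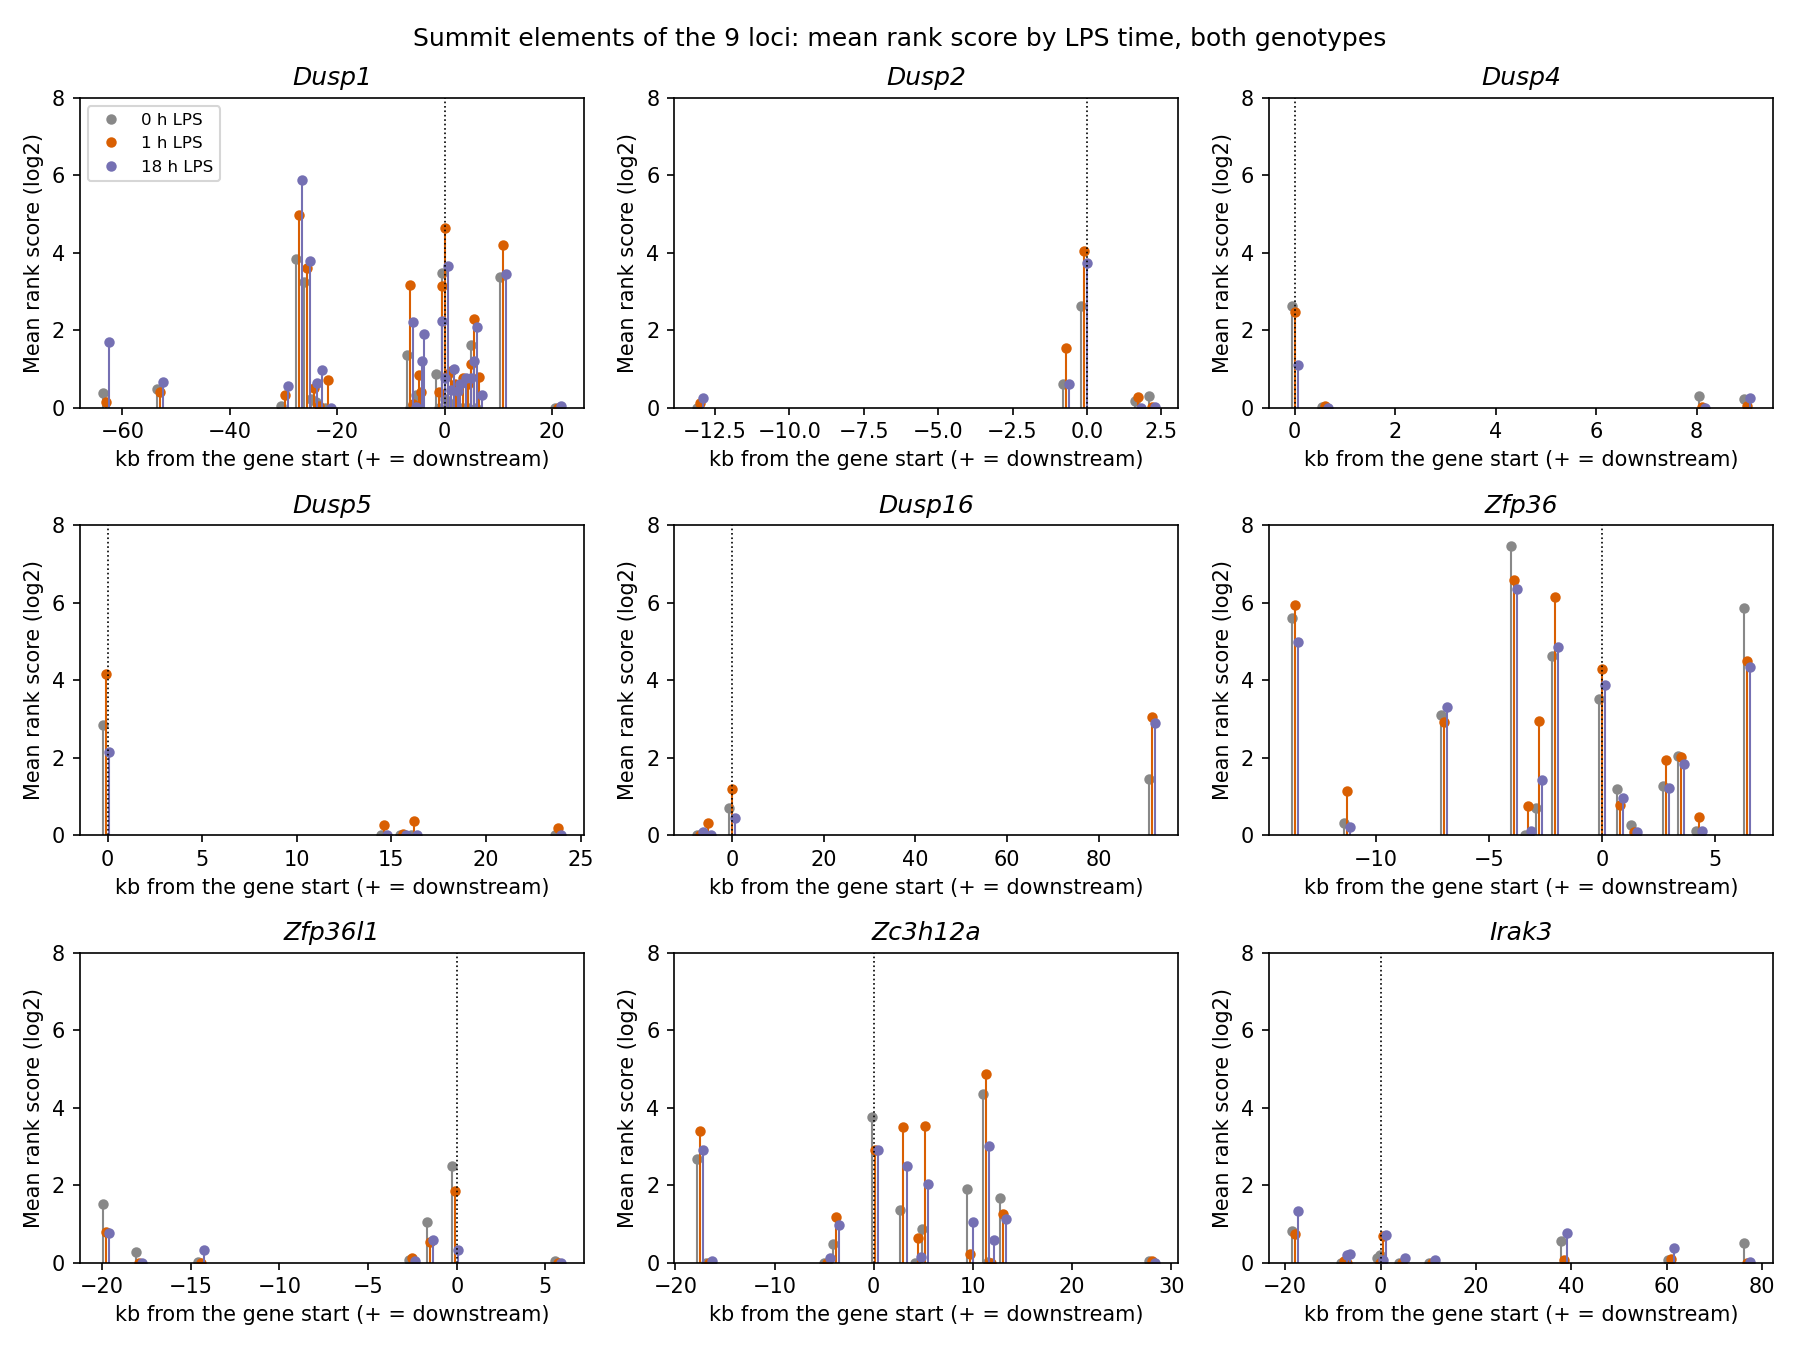
Mean rank score (log2, vertical axis) of each summit element at 0 h (grey, 6 lists), 1 h (orange, 5 lists) and 18 h (violet, 6 lists) against its distance from the gene start in kb (dotted line), both genotypes together. Points of one element are set side by side. At Zc3h12a +5168 bp the 1 h mean is 3.52 and the 0 h mean 0.88, and at Zfp36 −2816 bp they are 2.95 and 0.69, while the Zc3h12a promoter summit has 2.90 at 1 h and 3.76 at 0 h.

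The promoters of Dusp2, Dusp4, Dusp5 and Zfp36l1 gave the same calls at 1 and 18 h against 0 h as summit elements as they did as sites. The Irak3 promoter did not: its summit at +635 bp passed the threshold at 1 h (0.54 ± 0.19, adjusted p = 0.0497, and 0.0782 with depth as a covariate) and at 18 h (0.53 ± 0.18, adjusted p = 0.0485, and 0.0446 with depth as a covariate). At Dusp2 a second summit, at −692 bp with an NF-kB match, rose by 0.88 ± 0.29 at 1 h (adjusted p = 0.0309, and 0.111 with depth as a covariate). Over all 88 summit elements, 9 (10.2%) had an AP-1 match within 100 bp of the summit, 7 (7.95%) an NF-kB match and 4 (4.55%) a CArG box. Of all 37708 summit elements, 15.1%, 5.09% and 1.03% had them, and of all consensus sites 16.2%, 4.81% and 0.989%. Matches to C/EBP were in 15, to IRF in 7, to PU.1 in 5, to CRE in 1 and to NBRE in 1 of the 88, beside 16.3%, 7.37%, 7.14%, 1.18% and 1.01% of all.

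Loss of Nur77 was compared with WT over the same sites, since the study asks how Nur77 acts on the inflammatory response. None of the 43 sites was called in KO against WT, beside 0.395% of all sites, by limma with adjustment over all sites. At an unadjusted p under 0.05 there were 7 (16.3%), beside 9.43% of all sites. Averaged over times, differences over the 43 sites lay between -0.78 and 0.38, and the smallest adjusted p was 0.303, at Dusp1 +10.8 kb (-0.78 ± 0.26). At single times, differences lay between -0.85 and 0.67 at 0 h, -0.90 and 1.20 at 1 h, and -1.35 and 0.76 at 18 h. For the difference between the genotypes in the response to LPS, 0 sites were called at 1 h and 0 at 18 h, beside 0.0965% and 0.00585% of all sites. At an unadjusted p under 0.05 there were 4 (9.3%) and 2 (4.65%), beside 6.93% and 6.35% of all sites. The 88 summit elements gave 0 calls in each of these, beside 0.406%, 0.164% and 0%, with 7, 5 and 8 at an unadjusted p under 0.05 (7.95%, 5.68% and 9.09%, beside 9.8%, 7.02% and 6.49% of all summit elements). Within single times, KO against WT had 0 calls as well, beside 0.187%, 1.06% and 0.693% of all sites at 0, 1 and 18 h and 0.21%, 1.17% and 0.748% of all summit elements. At an unadjusted p under 0.05, 0, 4 and 8 of the 43 sites (0%, 9.3% and 18.6%) stood beside 4.09%, 10.8% and 13% of all sites. For the 88 summit elements it was 3, 15 and 16 (3.41%, 17% and 18.2%), beside 4.45%, 10.6% and 13.3% of all. The smallest adjusted p of these limma tests was 0.0775, at Dusp1 +21.1 kb at 18 h, which entered through the KO lists of that time.

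These counts do not show that the genotypes are alike. At the promoters, the KO minus WT difference averaged over times was -0.17 ± 0.23 at Dusp5, -0.13 ± 0.28 at Dusp2, -0.12 ± 0.19 at Dusp4 and 0.33 ± 0.30 at Dusp1. It was -0.39 ± 0.17 at Dusp16, -0.0047 ± 0.47 at Zfp36, 0.01 ± 0.16 at Zfp36l1, -0.42 ± 0.29 at Zc3h12a and -0.28 ± 0.15 at Irak3. The Zfp36 value is that of its wide site, ranked by summits upstream of the start. SEs of 0.15 to 0.47 leave room for differences of that order. The sites were called on the mean of both genotypes, which nearly fixes a shared sign, so the following is a description. Of the 13 sites called at 1 h, 6 were called within WT alone and 9 within KO alone, where 14.2% and 15.8% of all sites were called, 12 moved the same way in WT and in KO and 1, at Dusp16 −3.9 kb, was at 0 in KO. At 18 h, 9 of 17 were called within WT and 9 within KO, where 10.3% and 15.6% of all sites were called, 16 moved the same way and 1, Dusp1 +21.1 kb, was at 0 in WT. The Dusp5 promoter rose by 1.46 ± 0.42 at 1 h in WT and 1.22 ± 0.38 in KO, and that of Zfp36l1 fell by 1.42 ± 0.27 and 2.05 ± 0.27 at 18 h.

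The genotype counts rest in part on WT 1 h replicate 3. Without it, WT at 1 h is the single shallow list named replicate 1-2, assumed to vary like the other groups, and 3 sites were called in KO against WT and 4 for the 1 h response. The 3 were Dusp1 −6.4 kb (-0.88), Dusp16 −3.9 kb (-0.38) and Dusp2 +5.2 kb (-0.16), all lower in KO. The 4 were Dusp16 +91.7 kb (2.73), Dusp16 −3.9 kb (-1.03), Dusp2 +5.2 kb (-0.47) and Zfp36l1 −19.8 kb (-2.03). Without KO 18 h replicate 2, Dusp1 +21.1 kb (0.28) and Dusp16 −6.9 kb (0.39) were called for the 18 h response. Of these sites, Dusp16 −3.9 kb was within the limit in WT lists only, so the filter fixed its lower value in KO. Its 1 h response difference came from WT alone, since its score was 0 in every KO list. Dusp2 +5.2 kb had met the filter through 1 WT list and 1 KO list, both at 1 h. Dusp1 +21.1 kb and Dusp16 −6.9 kb had met it through the KO lists at 18 h. Depth differed with genotype too, with a median of 5.62 background reads per kb in the 8 WT lists and 1.53 in the 9 KO lists, and its part in these values was not tested beyond the fit with depth as a covariate, which called 0 sites for KO against WT.

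**Figure D5:**
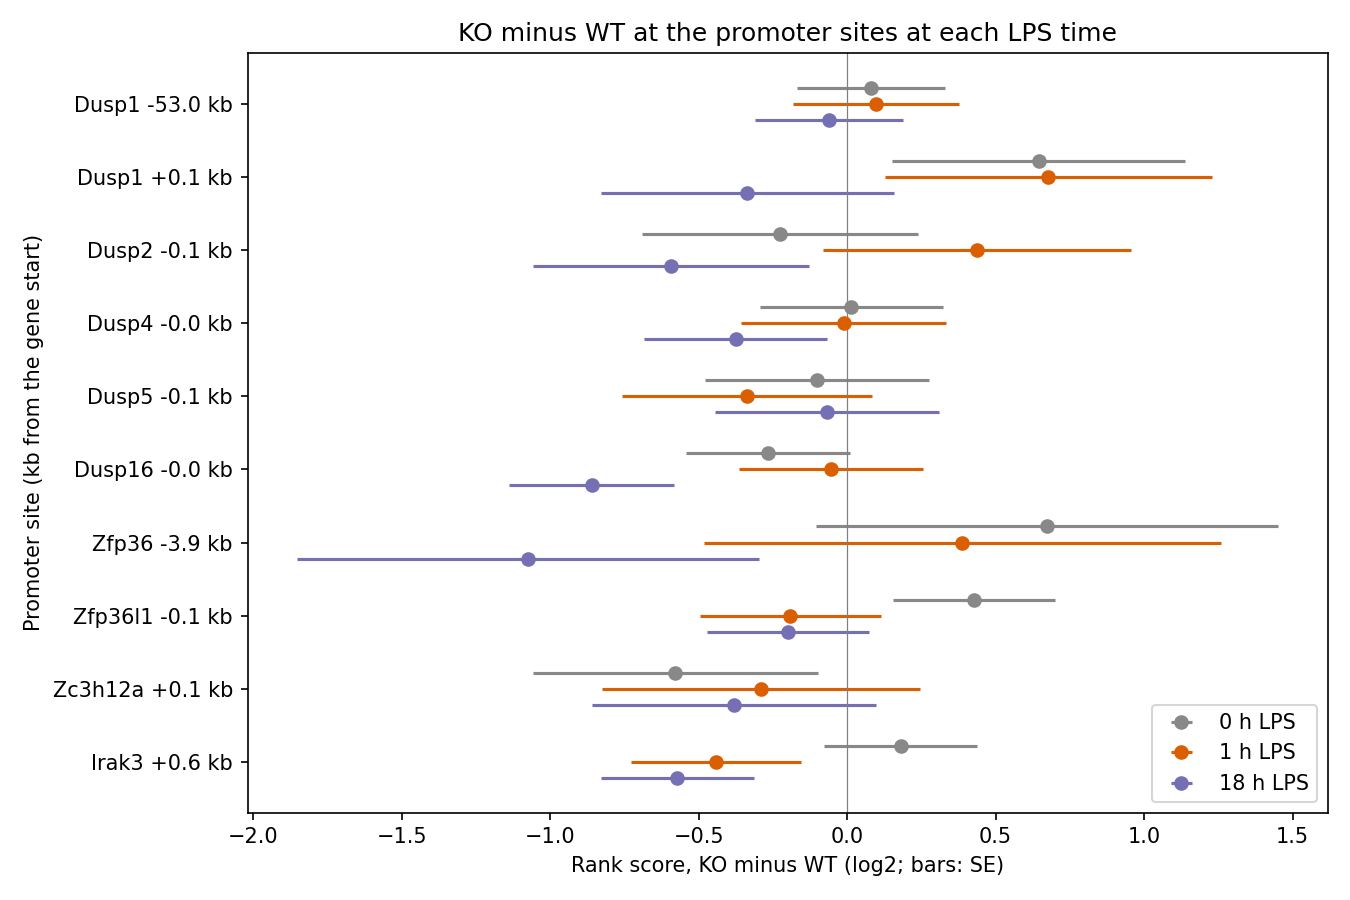
KO minus WT difference in rank score (log2, horizontal axis) at the 10 promoter sites of the 9 genes at 0, 1 and 18 h of LPS, with SE bars. The 2 Dusp1 rows are the gene start and the start of the long transcript at −53.0 kb. The Zfp36 site is ranked by summits upstream of its start. At 18 h the points of Dusp16, Irak3 and Zfp36 lie at -0.86 ± 0.28, -0.57 ± 0.26 and -1.08 ± 0.78, none past the threshold of limma's test.

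Other genes that act on MAP kinases, mRNA decay or IRAK signalling were counted from a list of 18: Dusp3, Dusp6, Dusp7, Dusp8, Dusp9, Dusp10, Dusp14, Dusp22, Zfp36l2, Zc3h12b, Zc3h12c, Zc3h12d, Rc3h1, Rc3h2, Irak1, Irak2, Irak4 and Tollip. Their windows held 79 sites at 17 of the genes, of which 17 (21.5%) rose and 12 (15.2%) fell at 1 h, beside 13.8% and 14.3% of all sites. At 18 h, 8 (10.1%) rose and 12 (15.2%) fell, beside 10.8% and 12.8%. In KO against WT, 1 of the 79 was called, beside 0.395% of all sites. It was a site at Dusp6 that was lower in KO. Among the 17 promoter sites of these genes, 1 rose and 5 fell at 1 h, beside 13.8% and 14.3% of all sites. At 18 h, 0 rose and 4 fell, beside 10.8% and 12.8%. These shares are over all sites and not over promoters alone. The largest change, named after its value was seen, was at the promoter of Zfp36l2, the third member of the Zfp36 family: it fell by 3.51 ± 0.49 at 1 h and 2.25 ± 0.47 at 18 h (adjusted p = 4.44e-05 and 0.00188).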

How the data were processed

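ATAC-seq peaks of 17 samples were used, 1 list per sample. According to the study's methods, the authors trimmed reads with cutadapt 2.6, mapped them to mm10, kept a mapping quality of at least 20 without mitochondrial reads or duplicates, and called peaks in each list at a q-value of 0.001. The peak caller's version is not given in the sources used here. The following deposited values were read: the fold of pileup over background at the summit (a ratio) and the −log10 p-value of the peak, both made by the authors' peak caller. The deposited lists hold no counts, so the count test of the study's methods (DiffBind 3.0.15) was not refitted.

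Where an interval had several entries, the one with the smallest p-value stood for it. Lists held 24389 to 71456 intervals, and the 24389 best of each were compared, with tied peaks given a middle rank. At the limit, ties covered up to 13.9% of a list's compared peaks. Depth, as background reads per kb, was recovered from the step that 1 read makes in the deposited fold column. Rank scores of all sites were fitted with limma 3.58.1 in R 4.3.3, with trend and robust moderation, a mean for each of the 6 groups and Benjamini-Hochberg adjustment over all sites, and an adjusted p under 0.05 was called. SEs are limma's. Single elements also had a two-sided exact permutation test that exchanged times within genotype. The fit was tested on simulated data. Gene bodies came from GENCODE vM21 and gene starts from RefSeq for 8 of the 9 genes, and a promoter site lay within 1 kb of a start.

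The text names each promoter site, the best ranked distal site of a locus and the called sites. The members, gene lists and tests were chosen with earlier results of these data known. Alternatives were other rank limits and scales, a minimum cover, a depth covariate, array weights, a replicate block, sites in at least 5 lists, a 10 kb window, a 500 bp promoter limit and leaving out each list. Summit elements, and their fit with depth, were added after the data were seen.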

Additional observations from a re-analysis of the deposited data

How the results depend on the processing

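The number of the 43 sites called at 1 h was 13, and 1 when ranks stopped at the 10000 best peaks, 7 when a peak had to cover at least 50% of a site, and 8 to 19 when each list was left out. The 17 called at 18 h became 1, 7 and, in a 10 kb window, 11, with 12 to 19 when each list was left out. The 14 called between 1 and 18 h became 1 and 2, with 10 to 18. The 0 called for KO against WT, for its 1 h response and for its 18 h response ranged over 0 to 3, 0 to 4 and 0 to 2 when each list was left out. The 28 summit elements called at 1 h became 18 with depth as a covariate. The minimum cover turned 4 changes: Dusp1 −6.4 kb to -0.063 at 1 h and 0.88 from 1 to 18 h, the Dusp2 promoter to -0.75 at 1 h, and Zc3h12a +11.3 kb to 0.78 from 1 to 18 h. The cause was not tested. Of the 44 single calls, 39 were kept with array weights, 36 with depth as a covariate and 32 with every summit ranked. Ranks as a share of all deposited peaks kept 26, the minimum cover 15 and the 10000 best peaks 3. With sites in at least 5 lists, 37 were kept, 2 were weaker, and the others had no such site to test. The 10 promoter sites were the same in number at 500 bp.

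Replicate numbers did not pair the lists: deviations from the group means correlated with a median r of 0.0055 over 35 same-numbered pairs and 0.00065 over 85 other pairs. With the replicate block the counts were 12 at 1 h, 16 at 18 h and 13 between them, and 0 for KO against WT and for each response, and 38 of the 44 calls were kept. A rank holds no read count, so a change at a site that keeps its place among other peaks is not detectable, and in the shallowest lists tied ranks limit the resolution.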
